A study of Mus musculus with 6 samples.

Results

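MHC class II presentation was described through 10 genes in the skin of C3H/HeJ mice with and without alopecia areata. The genes were chosen by name: H2-Aa, H2-Ab1 and H2-Eb1 for the chains, Cd74, Ctss and Ifi30 for their companions in the endosome, H2-DMa, H2-Oa and H2-Ob for peptide exchange, and Ciita for their control. All probe sets whose only gene symbol was one of these were taken, 18 of the 45037 probe sets on the array, and the brightest probe set of each gene stood for it among 18193 genes. The series held 6 arrays, 1 per mouse, of total skin RNA: 3 from the hairless skin of mice labelled with alopecia areata, an autoimmune hair loss that arises on its own in this inbred strain, and 3 from the skin of unaffected mice. All the mice shared the strain, and the labels name no treatment, transgene, age or site of the sample. Levels are log2 RMA values, so 1 unit is a doubling, and they are relative within a probe set and not comparable between genes.

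MHC class II molecules show peptides from taken-up or internal protein to CD4 T cells. An alpha and a beta chain pair in the endoplasmic reticulum with the invariant chain, the product of Cd74, which fills the peptide groove. In the endosome cathepsin S, from Ctss, cuts the invariant chain down to a short remnant, and H2-DM exchanges that remnant for a peptide while H2-O restrains H2-DM. Dendritic cells, Langerhans cells, macrophages and B cells make the class II chains at rest, whereas keratinocytes do so after exposure to interferon gamma, in both cases through the coactivator CIITA. CIITA does not bind DNA itself but is recruited to an X box and a Y box that lie at a set spacing in class II promoters.

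That control element is shown for the 4 of the 10 genes in whose promoter windows it was found. RefSeq promoter windows of GRCm38.p6, each from 250 bases before to 50 bases after a gene's start, were at hand for 7 of the 10 genes. They were searched on both strands for the X box core GCAAC followed on the same strand by the Y box core ATTGG, with 30 to 33 bases from the start of one to the start of the other. The cores and the spacing were set after the windows had been read, with the known elements in mind. The pair was found for H2-Aa, H2-Eb1, H2-Oa and H2-Ob, and in 66 of all 32851 windows, or 0.201%. The core GCAAC alone was in 35.2% of windows and ATTGG alone in 37.4%. The stretches below run from 20 bases before the X box core to 20 bases after the Y box core, 5′ to 3′ along the gene, with both cores in capitals. They lie at chr17:34287847-34287924 on the minus strand (H2-Aa), and on the plus strand at chr17:34305756-34305832 (H2-Eb1), chr17:34092283-34092360 (H2-Oa) and chr17:34238798-34238872 (H2-Ob), all upstream of the gene's first exon.
H2-Aa: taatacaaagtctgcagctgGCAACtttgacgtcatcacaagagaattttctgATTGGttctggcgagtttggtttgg
H2-Eb1: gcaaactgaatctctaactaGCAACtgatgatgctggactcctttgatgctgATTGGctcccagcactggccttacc
H2-Oa: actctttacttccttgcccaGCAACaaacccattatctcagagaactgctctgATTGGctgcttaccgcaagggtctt
H2-Ob: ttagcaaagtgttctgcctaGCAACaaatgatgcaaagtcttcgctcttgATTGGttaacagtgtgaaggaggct

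The X box core began 81 bases before the start of H2-Aa, 91 before that of H2-Eb1, 76 before that of H2-Oa and 87 before that of H2-Ob. From core to core the distance was 33 bases in H2-Aa and H2-Oa, 32 in H2-Eb1 and 30 in H2-Ob. The windows of H2-DMa, Ctss and Ifi30 did not hold these letters in this arrangement, which says nothing of factor binding there. The reference is the C57BL/6J genome, which carries another MHC haplotype than C3H/HeJ, so single bases may differ in the mice measured here.

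None of the 10 genes passed the test between alopecic and unaffected skin. By limma with Benjamini-Hochberg adjustment over all genes the smallest adjusted p was 0.267, for Ciita, and 3 genes, Ciita, H2-DMa and H2-Ab1, had an unadjusted p under 0.05. Over all genes 0.275% passed, 0.264% as higher, and 7.15% had an unadjusted p under 0.05. The log2 difference, alopecic minus unaffected, was above 0 for 9 genes and below 0 for H2-Oa, with a median of 0.86, or 1.81-fold, beside a median of -0.01 over all genes. In 5 genes, Ciita, H2-DMa, H2-Ab1, H2-Aa and H2-Ob, every alopecic array lay above every unaffected array, an arrangement found in 6.93% of all genes. Of the 18 probe sets 0 passed in a fit over all probe sets, where 0.142% passed (0.140% as higher), 6 had an unadjusted limma p under 0.05 (5.82% over all probe sets), and 10 had groups that did not overlap, all of them higher in alopecic skin (5.54% of all probe sets).

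**Figure D1:**
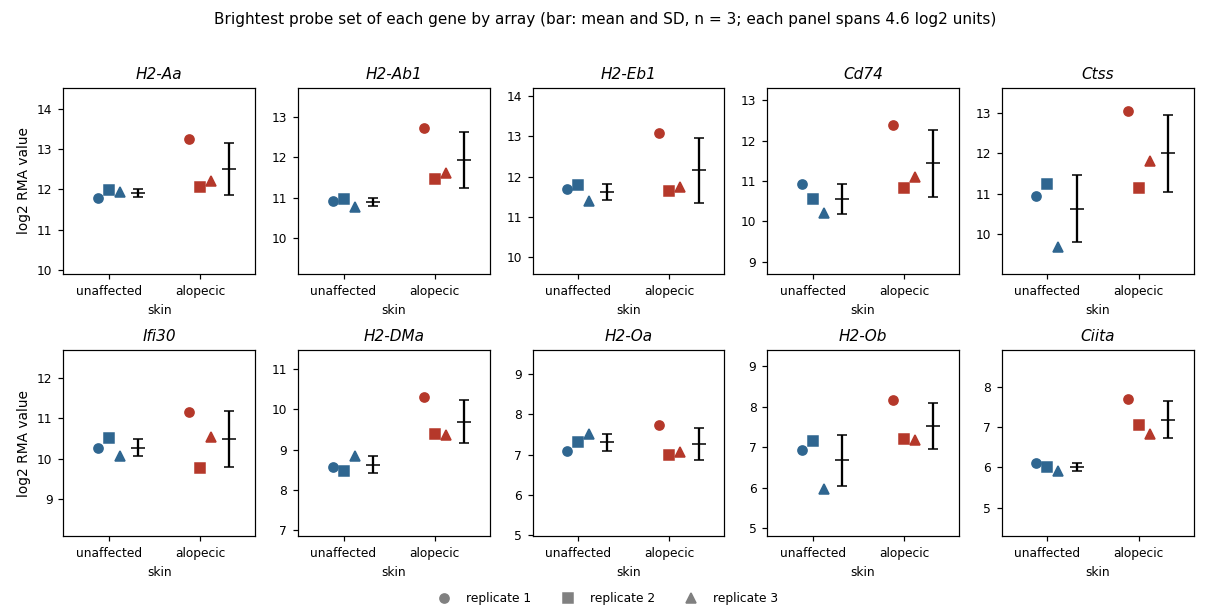
Log2 RMA value (vertical axis) of the brightest probe set of each of the 10 genes in unaffected (blue) and alopecic (red) skin, 1 point per array with its shape giving the replicate, and black bars for the mean and SD of each group (n = 3). Alopecic replicate 1 is the highest of the 6 arrays in all 10 panels. In Ciita, H2-DMa, H2-Ab1, H2-Aa and H2-Ob the other alopecic arrays also lie above every unaffected array, by only 0.05 in H2-Aa and 0.03 in H2-Ob.

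Much of the difference lay in a single array. Alopecic replicate 1 had the highest value of the 6 arrays in all 10 genes and in all 18 probe sets, whereas it was the highest in 12.3% of all genes and 11.6% of all probe sets. It lay more than 0.5 above both other alopecic arrays in 10 of 10 genes, against 7.08% of all genes. Without it the median difference of the 10 genes was 0.46, and without unaffected replicate 3 it was 0.65. Unaffected replicate 3 stood apart in hair genes: the 8 measured hair shaft keratins lay there at a median of 5.29 below the unaffected mean, while the other unaffected arrays lay 2.13 and 2.98 above it. No batch is labelled, and whether these arrays differ through the animals or through handling was not tested. The genes are not independent of each other, so their shared order of arrays is not 10 separate observations. In whole skin, more cells that make a transcript and more transcript per cell cannot be told apart.

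The alpha chain gene H2-Aa had log2 levels of 13.25, 12.05 and 12.22 in alopecic replicates 1, 2 and 3 and of 11.79, 11.99 and 11.94 in unaffected replicates 1, 2 and 3. The groups did not overlap, but alopecic replicate 2 exceeded the highest unaffected array by only 0.05. The log2 difference was 0.60 (SE 0.33, limma adjusted p = 0.822), or 1.51-fold with a 95% interval of 0.862 to 2.66, and 0.22 without alopecic replicate 1. Its 3 other probe sets gave differences of 0.66, 0.76 and 0.58, with overlapping groups in 2 of them. All 4 probe sets of H2-Aa showed alopecic replicate 1 well above the rest, by 1.12 to 1.63 over the mean of the other alopecic arrays.

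For its partner H2-Ab1, the beta chain of the same molecule, the levels were 12.73, 11.47 and 11.63 in alopecic and 10.92, 10.98 and 10.78 in unaffected skin. Here all alopecic arrays were clearly above the unaffected ones, whose SD was 0.10 (n = 3). The difference was 1.05 (SE 0.35, adjusted p = 0.598), or 2.07-fold with an interval of 1.15 to 3.74, and it was 0.66 without alopecic replicate 1. The 2 dimmer probe sets of H2-Ab1 gave 1.14 each, and in both unaffected replicate 3 was the lowest array, at 7.84 and 8.86.

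H2-Eb1, the beta chain of the other class II molecule of the mouse, had levels of 13.08, 11.64 and 11.75 in alopecic and 11.69, 11.79 and 11.41 in unaffected skin. The groups overlapped, and 2 of the 3 alopecic arrays lay among the unaffected ones. The difference was 0.53 (SE 0.41, adjusted p = 0.859), and it was 0.07 (SE 0.16, adjusted p = 0.924) without alopecic replicate 1. H2-Ea, the alpha chain of that molecule, which C57BL/6J mice lack and C3H mice make, was measured by 1 probe set of its own list. Its levels were 11.52, 9.80 and 10.23 in alopecic and 9.73, 9.31 and 9.31 in unaffected skin, without overlap, a difference of 1.07 (SE 0.45, adjusted p = 0.731). H2-Eb2, a further beta chain gene, was dim in all arrays, from 5.10 to 5.73, with a difference of -0.16 (SE 0.18, adjusted p = 0.893).

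Array probes for these chains need care. Of the 8 probe sets for H2-Aa, H2-Ab1 and H2-Eb1, 6 carry the maker's suffix x or s, given where probes can match more than one transcript. The chains are also highly polymorphic, and how well the probes match the C3H/HeJ alleles was not tested.

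**Figure D2:**
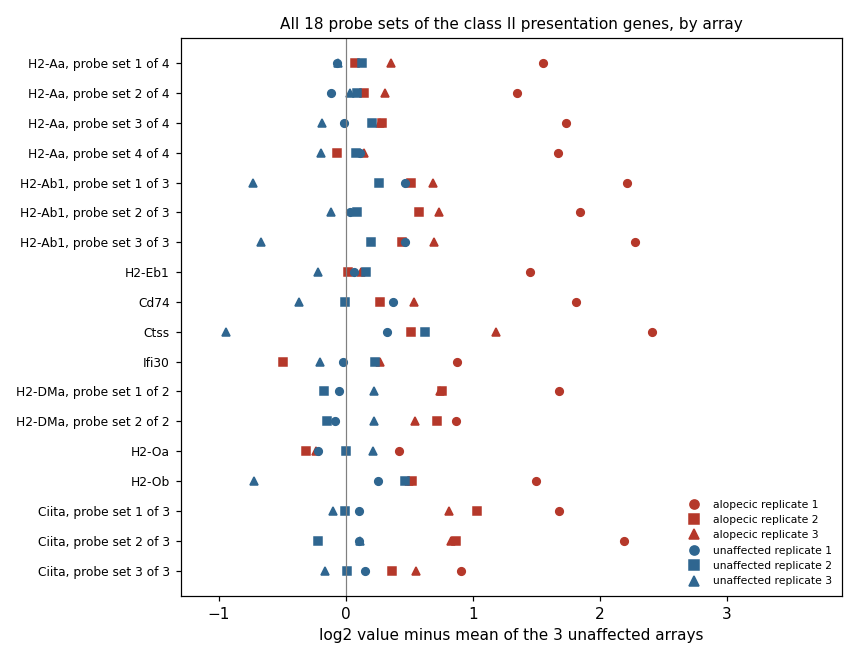
Each of the 18 probe sets (rows) with its log2 value minus the mean of the 3 unaffected arrays (horizontal axis), 1 point per array, red for alopecic and blue for unaffected skin, with probe sets of a gene numbered in order of their identifiers. Alopecic replicate 1, the red circle, is the rightmost point in all 18 rows, and the probe sets of a gene place the arrays much alike.

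Cd74, the invariant chain, had log2 levels of 12.38, 10.83 and 11.10 in alopecic and 10.94, 10.56 and 10.20 in unaffected skin. Alopecic replicate 2 lay below unaffected replicate 1, so the groups overlapped. The difference was 0.87 (SE 0.44, adjusted p = 0.798), and 0.40 without alopecic replicate 1.

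Ctss had the largest difference of the 10 genes and also the widest spread within groups. The levels of this protease were 13.04, 11.15 and 11.82 in alopecic and 10.96, 11.25 and 9.69 in unaffected skin. Its group SDs were 0.96 and 0.83 (n = 3 each), and the difference was 1.37 (SE 0.61, adjusted p = 0.755), or 2.58-fold with an interval of 0.903 to 7.39. Leaving out the highest array, alopecic replicate 1, gave 0.85, and leaving out the lowest, unaffected replicate 3, gave 0.90. Ifi30, the thiol reductase that opens disulfide bonds of proteins before they are cut, had levels of 11.15, 9.78 and 10.55 in alopecic and 10.25, 10.50 and 10.07 in unaffected skin. Its alopecic arrays held both the highest and the lowest of the 6 values. The difference was 0.22 (SE 0.36, adjusted p = 0.923), and -0.11 without alopecic replicate 1.

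H2-DMa, the alpha chain of the peptide exchanger, separated the groups more evenly. Levels were 10.31, 9.39 and 9.37 in alopecic and 8.58, 8.46 and 8.85 in unaffected skin. Every alopecic array was above every unaffected one, and the closest pair was 0.52 apart, which the second probe set of the gene showed at 0.32. The difference was 1.06 (SE 0.29, adjusted p = 0.488), or 2.08-fold with an interval of 1.27 to 3.41, and it was 0.75 (SE 0.16, adjusted p = 0.369) without alopecic replicate 1. That dimmer second probe set gave 0.71 (SE 0.15, adjusted p = 0.373 over all probe sets). H2-DMb2, a beta chain gene of the same exchanger with a near-identical neighbour, had a difference of 0.92 (SE 0.27, adjusted p = 0.534), also without overlap.

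The chains of H2-O, the restraint on H2-DM, differed from each other in how the arrays were placed. H2-Oa had levels of 7.72, 6.99 and 7.07 in alopecic and 7.09, 7.31 and 7.52 in unaffected skin, so that alopecic replicate 1 was the highest and the other alopecic arrays were the lowest of the 6. Its difference was -0.04 (SE 0.24, adjusted p = 0.976), with an interval of -0.63 to 0.54, and -0.28 without alopecic replicate 1. H2-Ob had levels of 8.18, 7.20 and 7.18 in alopecic and 6.94, 7.14 and 5.96 in unaffected skin. Its groups did not overlap, yet the closest pair was 0.03 apart, and the low unaffected replicate 3 widened the difference to 0.84 (SE 0.42, adjusted p = 0.790). Without that array it was 0.48. H2-Oa and H2-Ob carry the X and Y box cores in the windows printed above, as do H2-Aa and H2-Eb1.

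Ciita, the coactivator, had the smallest p of the 10 genes. Its levels were 7.69, 7.04 and 6.82 in alopecic and 6.11, 6.002 and 5.91 in unaffected skin. The gap between the groups, 0.71, was larger than the whole range of the unaffected arrays, although the unaffected mean of 6.01 lay below the lowest array median of 6.11, where RMA compresses differences. The difference was 1.18 (SE 0.24, adjusted p = 0.267), or 2.26-fold with an interval of 1.50 to 3.40, and it was 0.92 (SE 0.14, adjusted p = 0.194) without alopecic replicate 1. Its other probe sets gave 1.30 and 0.61, and the groups did not overlap in any of the 3. The Ciita gene has several promoters used by different cell types, which these probe sets do not tell apart.

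**Figure D3:**
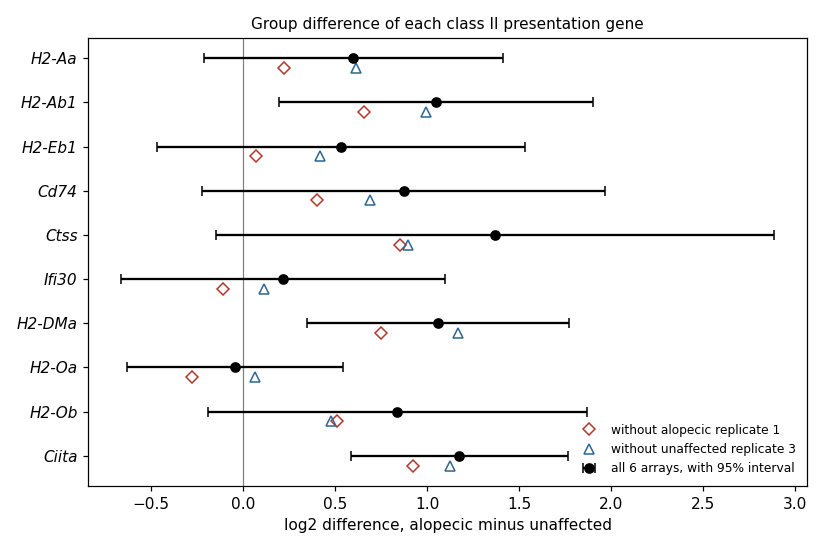
Log2 difference, alopecic minus unaffected (horizontal axis), of each of the 10 genes with all 6 arrays and its 95% interval from the fit, not adjusted for the number of genes (black), and without alopecic replicate 1 (red diamonds) or without unaffected replicate 3 (blue triangles). The intervals of H2-Ab1, H2-DMa and Ciita lie above 0, and without alopecic replicate 1 the differences of H2-Eb1, H2-Oa and Ifi30 lie at 0.07, -0.28 and -0.11.

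Ciita was then set against its main targets within each array, to see whether the coactivator differed by another amount than the chains. The quantity was the log2 value of Ciita minus that of a chain gene, compared between groups with a two-sided exact permutation test, where 20 assignments of arrays allow no p below 0.1, with adjustment over 4 comparisons. Against H2-Aa this within-array value was higher in alopecic skin by 0.58 (exact permutation p = 0.1, adjusted 0.2), and against H2-Eb1 by 0.64 (exact permutation p = 0.1, adjusted 0.2), with all 3 alopecic arrays above all 3 unaffected arrays in both. Against H2-Ab1 it differed by 0.12 (exact permutation p = 0.7, adjusted 0.7) and against Cd74 by 0.30 (exact permutation p = 0.4, adjusted 0.533), with overlapping groups. The design cannot reach 0.05, and no comparison passed. Without alopecic replicate 1 the values were 0.70, 0.85, 0.27 and 0.52 in the same order of genes.

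The remaining genes of the pathway were taken from a list of 14 entries, of which 13 were measured. None passed, 1 had an unadjusted limma p under 0.05 (7.15% over all genes), and the median difference was 0.14. Besides H2-Ea, H2-DMb2 and H2-Eb2 these were proteases, the cystatin Cst3, the membrane protease Sppl2a and ubiquitin ligases. Lysosomal proteases that are not particular to class II cells showed small differences with wide errors, such as Ctsb at 0.14 (SE 0.41) and Ctsl, the cathepsin that cuts the invariant chain in thymic epithelium, at -0.53 (SE 0.63). Marchf1, a ligase that removes class II molecules from the surface, differed by 0.54 (SE 0.27, adjusted p = 0.798).

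Of 17 regulators listed, 16 were measured and Irf1 rose. Irf1, a factor induced by interferon gamma that acts on a Ciita promoter, had levels of 11.82, 11.61 and 11.60 in alopecic and 8.50, 8.84 and 8.90 in unaffected skin. The rise was 2.93 (SE 0.15, adjusted p = 0.00607), or 7.61-fold, with the 3 alopecic arrays within 0.23 of each other. Alopecic replicate 1, the highest array for all 10 class II genes, stood 0.22 above the mean of the other alopecic arrays for Irf1. The call was lost without unaffected replicate 2 (adjusted p = 0.0679). Irf8, a factor of myeloid cells, differed by 2.32 (SE 0.34, adjusted p = 0.0997) and Usf1, which binds a Ciita promoter, by 0.56 (SE 0.10, adjusted p = 0.193). The subunits of the complexes that bind the X and Y boxes differed by 0.44 for Rfx5 (SE 0.18), 0.06 for Rfxap, -0.15 for Rfxank, 0.51 for Nfya (SE 0.21), 0.30 for Nfyb and 0.05 for Nfyc, and none passed. Ifng itself, 1 of the 2 genes that rose among 7 measured in interferon gamma signalling, Irf1 being the other, rose by 2.24 (SE 0.25, adjusted p = 0.0494). With 1 array left out it passed only without alopecic replicate 1, the adjusted p running from 0.0475 to 0.233 over 6 fits, and it did not pass after quantile normalization (adjusted p = 0.0553) or with the mean of each gene's probe sets (adjusted p = 0.0502).

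Class I presentation, measured in the same arrays with 10 genes, is given beside it. There Psmb9, Psmb10 and Tap2 rose, by 2.60, 2.34 and 2.53, and the median difference was 2.13, or 4.38-fold. In 10 of 10 genes every alopecic array lay above every unaffected array, against 6.93% of all genes. With 1 array left out Tap2 passed only without unaffected replicate 3, Psmb9 without that array or alopecic replicate 1, and Psmb10 without either of these or alopecic replicate 3, with adjusted p up to 0.166 for Tap2 and 0.0903 for the others. Without alopecic replicate 1 the class I median was 1.99, and that of H2-Aa, H2-Ab1, H2-Eb1 and Cd74 went from 0.74 to 0.31. By array, the class I genes lay at medians of 2.35, 2.11 and 1.88 above the unaffected mean in alopecic replicates 1, 2 and 3, and those 4 class II genes at 1.63, 0.21 and 0.42. Nlrc5, the class I counterpart of Ciita and named here after its values were seen, differed by 2.03 (SE 0.25, adjusted p = 0.0631). The class I list holds processing genes and Nlrc5 besides chain genes, whereas those 4 class II genes are the chains and the invariant chain. The class I chain genes, named after their values were seen, lay below the class I median. B2m differed by 0.71 (SE 0.14), H2-D1 by 1.13 (SE 0.14) and H2-K1 by 1.66 (SE 0.37), and none passed. The difference between the 2 pathways was not tested.

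**Figure D4:**
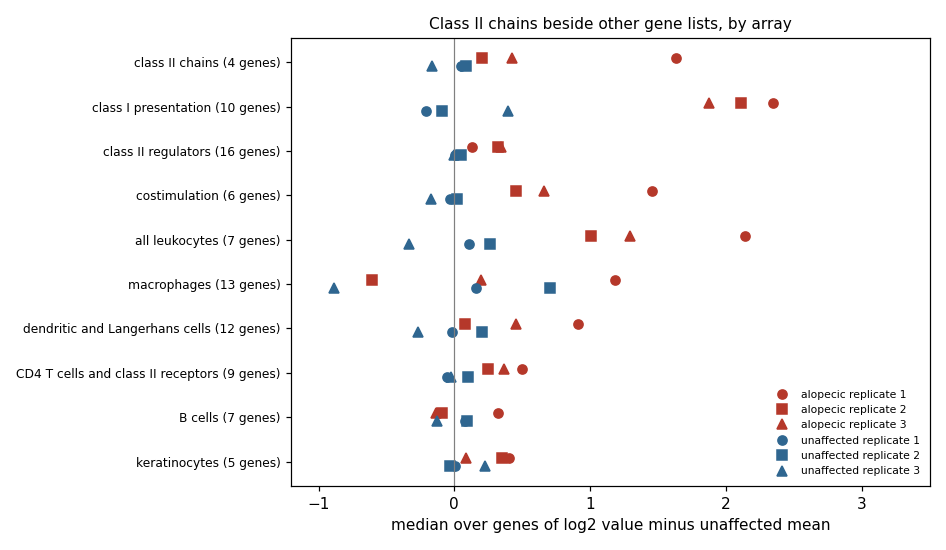
Median over the genes of a list of the log2 value minus the unaffected mean (horizontal axis), 1 point per array, for H2-Aa, H2-Ab1, H2-Eb1 and Cd74 as class II chains and for other gene lists (rows), red for alopecic and blue for unaffected skin. In the class I row the 3 red points lie between 1.88 and 2.35, while in the class II row they lie at 1.63, 0.21 and 0.42. The class I row holds processing genes besides chains, so the 2 rows are not like sets.

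Cells that carry class II molecules were followed through their markers. Of 7 markers listed for leukocytes 0 passed, and the median difference was 1.72 (1.30 without alopecic replicate 1). In 5 of them every alopecic array lay above every unaffected array, against 6.93% of all genes. Laptm5 and Cd52 differed by 1.72 (SE 0.28) and 1.85 (SE 0.49). Tyrobp and Fcer1g, named after their values were seen, had overlapping groups and differed by 0.29 (SE 0.50) and 0.35 (SE 0.53). The log2 of the summed level of the list ran from 12.47 to 13.90 in alopecic and from 11.45 to 11.92 in unaffected skin. Such a sum, here and below, is set mostly by the brightest probe sets of a list, and it is no measure of cell numbers. Like the class II genes, these markers were highest in alopecic replicate 1, at a median of 2.14 above the unaffected mean against 1.01 and 1.29 in the others. For 13 macrophage markers, of which 0 passed, the summed level ran from 12.19 to 14.04 in alopecic and from 12.14 to 13.37 in unaffected skin. Their medians were 1.18, -0.61 and 0.20 in alopecic replicates 1, 2 and 3 and 0.16, 0.70 and -0.89 in the unaffected ones, with Csf1r at a difference of 0.10 (SE 0.41) and Lyz2 at 0.35 (SE 0.63). Named after their values were seen, Aif1 differed by 2.20 (SE 0.57) without overlap and Cd163 by -1.06 (SE 0.80) with overlap. The macrophage medians thus put alopecic replicate 1 highest and unaffected replicate 3 lowest. Ctss did so too, but so did H2-Ab1, H2-Eb1, Cd74, H2-Ob and Ciita, so this order is not particular to Ctss.

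Of 12 measured markers of dendritic and Langerhans cells, Ly75, an endocytic receptor, rose by 2.14 (SE 0.20, adjusted p = 0.0267), with alopecic arrays at 7.79, 7.70 and 7.15 and unaffected arrays at 5.31, 5.58 and 5.35. With 1 array left out it passed only without alopecic replicate 3 (adjusted p from 0.0448 to 0.176 over 6 fits). Of the 12 differences 9 were above 0 and 3 below, with a median of 0.45. In 5 markers, Ly75 among them, every alopecic array lay above every unaffected array, against 6.93% of all genes. The others of the 5, named after their values were seen, were Itgax at 1.66 (SE 0.52), Fscn1 at 1.27 (SE 0.51), Batf3 at 0.82 (SE 0.30) and Ccr7 at 0.61 (SE 0.26). The 3 below 0 were named after their values were seen and had overlapping groups. They were Cd207 at -0.46 (SE 0.45), Cd209a at -1.08 (SE 0.79) and Flt3 at -0.18 (SE 0.24). The summed level ran from 13.28 to 14.10 in alopecic and from 12.69 to 13.50 in unaffected skin. It leaned most on Epcam, the brightest of the list at 12.13 to 13.49. Of 7 B cell markers 0 passed, all 7 had overlapping groups, and the median difference was -0.06. The brightest were Blnk, an adaptor of B cell receptor signalling, at 9.38 to 10.57 with a difference of -0.17 (SE 0.37), and Ighm, the heavy chain of IgM, at 7.18 to 8.67 with a difference of -0.06 (SE 0.49). Ms4a1, Cd79a and Pax5, named after their values were seen, lay between 4.42 and 4.99 in all 6 arrays, below the array medians. Of the 7 B cell differences 2 were above 0 and 5 below. The 2 above were Cd22 at 0.29 (SE 0.20) and Cd79b at 0.28 (SE 0.22), also named after their values were seen. The summed level of all 7 B cell markers ran from 10.15 to 10.92 in alopecic and from 10.24 to 10.83 in unaffected skin. Keratinocyte markers were bright in both groups, with Krt10 at a difference of -0.30 (SE 0.33) and overlapping groups, and Krt14 at 0.48 (SE 0.14) without overlap. Of these 5 markers 0 passed, and the median difference was 0.09. The part of each cell type in the class II differences was not tested.

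On the side that reads class II molecules, 0 of 9 genes of CD4 T cells and class II receptors passed. Of the 9 differences 6 were above 0 and 3 below. The T cell receptor subunits Cd3g and Cd3e differed by 1.64 (SE 0.43, adjusted p = 0.472) and 0.52 (SE 0.15, adjusted p = 0.523). They are not particular to CD4 T cells, since other T cells also carry them. Named after their values were seen, Icos differed by 1.49 (SE 0.27), Cd28 by -0.02 (SE 0.18) and Cd40lg by -0.08 (SE 0.13). Cd4, the coreceptor that binds class II molecules, was named after its values were seen: it lay from 6.05 to 6.13 in alopecic and from 6.15 to 6.43 in unaffected skin, near the array medians of 6.11 to 6.17. Of 6 genes listed under costimulation, which include inhibitory ligands and the receptor Cd40, 0 passed. Cd274, which encodes the inhibitory ligand PD-L1, differed by 3.07 (SE 0.42, adjusted p = 0.0831). Cd86, a costimulatory ligand, differed by 1.03 (SE 0.36, adjusted p = 0.618).

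Among 9089 brighter genes other than the 10, those whose levels over the 6 arrays were most like the mean of H2-Aa, H2-Ab1, H2-Eb1 and Cd74 were P4hb, Cflar, H2-Ea, Dock10 and Gda, with Pearson's r from 0.977 to 0.986 and Spearman's rho from 0.886 to 1. Most like Ciita were Ifih1, Clec7a, Nkg7, Sp100 and Xaf1, with r from 0.992 to 0.996 and rho from 0.943 to 1. These rankings describe 6 arrays that include the high alopecic replicate 1 in both, and the lists of 5 shared no gene. Each list holds the highest of 9089 correlations over 6 arrays, a choice that by itself favours high values, and no correlation was tested.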

How the data were processed

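Skin RNA of each of 6 mice, labelled from the 3′ end per the labels' protocols, was hybridised to its own array. The deposited values are on a log2 scale and were made with RMA, per the submitters' processing notes, which give no version. RMA subtracts background, equalises the arrays and combines the probes of a probe set. Nothing further was done to the values. With 64 control probe sets left out, those with 1 symbol in the platform annotation were named through RefSeq (GRCm38.p6), and the one with the highest mean over 6 arrays stood for each of 18193 genes. Groups were compared by limma 3.58.1, run in R 4.3.3 with its moderated two-sided test, and p-values were adjusted by Benjamini-Hochberg over all genes or all 45037 probe sets at a threshold of 0.05. "Rose" and "fell" mean past it. The fit was tested on simulated data. SDs are over 3 arrays, whose number limits the precision, and the design text gives each array its own mouse.

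The 10 genes, the gene lists and the tests were chosen with earlier results of these data known. Genes named were the 10, measured genes of the pathway and regulator lists, up to 4 members past the threshold of each other list or else its 2 brightest, and the 5 most correlated genes. Others are said to be named after their values were seen. Alternatives were a replicate block, quantile normalization, leaving out probe sets below the median, another eBayes prior, the mean of a gene's probe sets, ranks, and leaving out each array. Leaving out alopecic replicate 1 and unaffected replicate 3 together was chosen after seeing the data. Scanner files were not used here, so background correction was not varied.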

Additional observations from a re-analysis of the deposited data

How the results depend on the processing

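None of the 10 genes and none of the 18 probe sets passed limma's test under any alternative in which they were tested, at unadjusted p under 0.05 for 2 to 4 genes and 5 to 9 probe sets. The smallest adjusted p of a class II gene over all settings was 0.113, for H2-DMa without alopecic replicate 1 and unaffected replicate 3. The median difference of the 10 genes stayed above 0, from 0.23 without both these arrays to 1.09 without alopecic replicate 2. With both arrays left out, a setting chosen after seeing the data, H2-Eb1 differed by -0.041 and Ifi30 by -0.21, while 51 genes and 89 probe sets passed in all. With 1 array left out, H2-Eb1 ran from 0.07 to 0.79, H2-Oa from -0.28 to 0.092 and Ifi30 from -0.11 to 0.57. Ciita minus H2-Ab1 ran from -0.041 to 0.27 and was -0.081 with the mean of all probe sets of each gene. The cause of these reversals was not tested.

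Over all genes 50 passed, and over all probe sets 64. With 1 array left out 4 to 39 genes and 0 to 68 probe sets did so, with 0 probe sets without unaffected replicate 1 or 2 (2779 and 2572 at an unadjusted limma p under 0.05). With probe sets below the median left out 97 probe sets passed, of fewer tested, and on ranks 34. The replicate block, with replicate numbers that the labels share between groups, gave 0 genes and 0 probe sets (873 and 1959 at an unadjusted limma p under 0.05). Same-numbered arrays did not deviate together, with correlations of -0.13, -0.20 and -0.33 across genes, and no array correlated best with the array of the other group that has its own number. The block left the called class II genes at 0. The 3 arrays per group and dim signals, as for Ciita, limit what could be detected.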
